A study of Mus musculus with 12 samples.

Results

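Mitochondrial ribosomal protein genes were taken as all genes of the count files whose symbol starts with Mrpl or Mrps followed by a digit, without pseudogene (-ps) and opposite-strand (os) symbols, and with a level of 1 CPM or more (CPM is a gene's count relative to the scaled total of its library) in 6 or more of the 12 libraries. The symbols matched 78 genes, 49 Mrpl and 29 Mrps, and all 78 passed, of 24627 genes in the files and 13191 genes tested. RNA-seq covered 3 J1 XY mouse embryonic stem (ES) cell lines in which the only X chromosome carries *Xist* under a tetracycline-inducible promoter (*Xist*-TetOP), with 2 replicates in each of 6 groups. *Xist* FL keeps full-length *Xist*, *Xist* ΔA lacks the A repeats and does not silence, and *Xist* ΔB+C lacks the B and C repeats, through which Polycomb complexes are recruited. All cells were at day 2 of differentiation by LIF withdrawal, either with 1.5 μg/ml doxycycline (DOX), which switches *Xist* on, or without it (noDOX). *Xist* ΔB+C was derived from *Xist* FL by CRISPR/Cas9 through picking of single colonies, and more than 1 clone of each new mutant was made, of which the labels do not name the one sequenced. The *Xist* FL and *Xist* ΔA lines were made earlier. With no further line per genotype in the labels, genotype and line cannot be told apart. No line without an inducible *Xist* is among these samples, so DOX and *Xist* RNA also cannot be told apart. Per the study's RNA FISH, only part of the cells in a DOX culture show an *Xist*-coated chromosome. Replicates are biological duplicates per the study's methods.

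The mitochondrial ribosome makes the few respiratory chain subunits that mitochondrial DNA encodes. Its RNA comes from mitochondrial DNA, whereas each of its proteins is encoded in the nucleus, made in the cytosol and imported, and is named for the large (Mrpl) or the small (Mrps) subunit. Some members descend from bacterial ribosomal proteins and others are found only in mitochondria. Doxycycline is a tetracycline, a class of antibiotic that binds the small subunit of bacterial ribosomes and can also block translation in mitochondria, so the set was compared with and without DOX in each line. A few symbols mislead: *Mrps18a* and *Mrps30* proteins sit in the large subunit, and the Mrps36 protein is a component of the oxoglutarate dehydrogenase complex.

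Each library held 31337490 to 41240470 counts, and each member had at least 330 counts in every library. *Xist* itself checked the labels: it stood at 2.48 to 8.27 CPM in the 6 noDOX libraries and 570.1 to 1791 CPM in the 6 DOX libraries, with log2 fold changes of 8.34 for *Xist* FL cells, 6.47 in *Xist* ΔA cells and 9.19 in *Xist* ΔB+C. The 6 pluripotency markers (*Pou5f1*, *Nanog*, *Sox2*, *Zfp42*, *Esrrb*, *Dppa5a*) summed to 2211 to 3860 CPM, and none was at 0 in all libraries. In these bulk samples, fewer cells of a type and less RNA per cell cannot be told apart. CPM values below are scaled by TMM factors from expressed autosomal genes, differences are log2 fold changes from edgeR's quasi-likelihood test with their standard error (SE), and a gene is called where the Benjamini-Hochberg adjusted p over all genes tested is under 0.05.

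The start regions of 4 members whose noDOX level in *Xist* ΔA differed from both other lines are shown, because each carries a motif searched in all members and the results return to these genes. They run from 250 bases before to 50 bases after the RefSeq transcript start (GRCm38.p6), 5′ to 3′ on the gene's strand. Capitals mark GCATGCGC, the core of NRF1 sites, in *Mrpl10* (chr11:97041332-97041631, plus strand) and, on both strands with overlap, in *Mrpl9* (chr3:94443086-94443385, plus strand). They mark CCGGAAG, the core of ETS factor sites, on the opposite strand in *Mrpl21* (chr19:3282792-3283091, plus strand), and AAGATGGC, a YY1 site, in *Mrpl49* (chr19:6057706-6058005, minus strand).
Mrpl10: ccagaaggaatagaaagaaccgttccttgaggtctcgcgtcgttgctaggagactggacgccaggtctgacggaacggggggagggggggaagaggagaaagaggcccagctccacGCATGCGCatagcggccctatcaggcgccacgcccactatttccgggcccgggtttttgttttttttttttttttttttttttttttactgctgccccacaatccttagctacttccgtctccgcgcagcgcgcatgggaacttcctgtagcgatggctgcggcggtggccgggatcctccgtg
Mrpl9: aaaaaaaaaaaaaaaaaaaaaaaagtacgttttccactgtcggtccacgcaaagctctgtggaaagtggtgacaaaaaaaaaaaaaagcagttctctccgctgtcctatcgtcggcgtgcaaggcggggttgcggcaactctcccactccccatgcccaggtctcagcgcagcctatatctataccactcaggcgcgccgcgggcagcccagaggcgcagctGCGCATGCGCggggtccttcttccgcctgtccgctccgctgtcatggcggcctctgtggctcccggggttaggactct
Mrpl21: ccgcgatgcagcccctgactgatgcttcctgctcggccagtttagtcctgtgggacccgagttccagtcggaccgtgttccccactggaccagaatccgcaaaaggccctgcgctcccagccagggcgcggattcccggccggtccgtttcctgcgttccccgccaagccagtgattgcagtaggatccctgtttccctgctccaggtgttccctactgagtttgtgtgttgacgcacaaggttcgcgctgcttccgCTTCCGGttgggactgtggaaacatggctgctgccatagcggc
Mrpl49: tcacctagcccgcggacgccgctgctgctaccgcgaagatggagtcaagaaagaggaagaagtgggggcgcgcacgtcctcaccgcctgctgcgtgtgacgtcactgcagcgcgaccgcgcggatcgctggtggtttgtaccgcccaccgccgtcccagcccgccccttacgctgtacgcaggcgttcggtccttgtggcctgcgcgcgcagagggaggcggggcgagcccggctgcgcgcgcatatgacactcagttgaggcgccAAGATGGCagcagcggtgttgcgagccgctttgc

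RefSeq start regions were at hand for 69 of the 78 members, in 75 windows. Searched on both strands, the ETS letters CCGGAAG stood in 34.7% of member windows, against 16.9% of the windows of all genes tested. The YY1 letters AAGATGGC stood in 12 of 75 member windows, against 4.29% of those of all genes tested, and the NRF1 letters GCATGCGC in 10.7% against 5.20%. The E-box CACGTG was found in 9.33% of member windows against 10.1%, and CCAAT in 40.0% against 37.9%. Member windows had a median GC content of 58.7%, compared with 61.0% for all genes tested. Member transcripts were short, with a median exon length of 1284 bases against 3179 bases for the protein-coding genes tested. Of the 78 members, 19 (24.4%) had a divergent protein-coding neighbour on the opposite strand, with a start at most 1000 bases upstream or overlapping by at most 100 bases, compared with 10.7% of tested protein-coding genes; *Mrpl10* is paired in this way with *Lrrc46* and *Mrpl49* with *Fau*. These shares describe letters and positions in the annotation, and no binding was measured here. Because read pairs were counted without strand, the 17 members whose exons overlap those of another coding gene are uncertain, among them *Mrpl9* (*Oaz3*), *Mrpl21* (*Ighmbp2*), *Mrpl49* (*Syvn1*), *Mrpl27* (*Eme1*), *Mrps7* (*Gga3* and *Mif4gd*), *Mrps30* (*B430218F22Rik*), *Mrpl36* (*Ndufs6*) and *Mrpl13* (*Mtbp*).

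Members were expressed at moderate levels that differed widely between genes. Mean CPM over the 12 libraries ran from 15.6 to 195.7, with a median of 50.7. Per kilobase of exon, a scale that allows genes to be set beside each other, the median level was 41.4 CPM per kb, and the large-subunit median of 45.6 stood close to the small-subunit median of 38.0. The highest levels per kb were those of *Mrpl42* (162), *Mrpl34* (138) and *Mrpl12* (134), which encodes the stalk protein that contacts translation factors. The lowest were those of *Mrpl32* (5.17), *Mrpl48* (6.58) and *Mrps25* (8.11). The merged exons of these genes are long in the annotation, so that a level divided by this length is low where a short transcript is the main one. *Mrpl32* also had the lowest mean CPM of all members (15.6), so its low level does not rest on length alone.

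**Figure D1:**
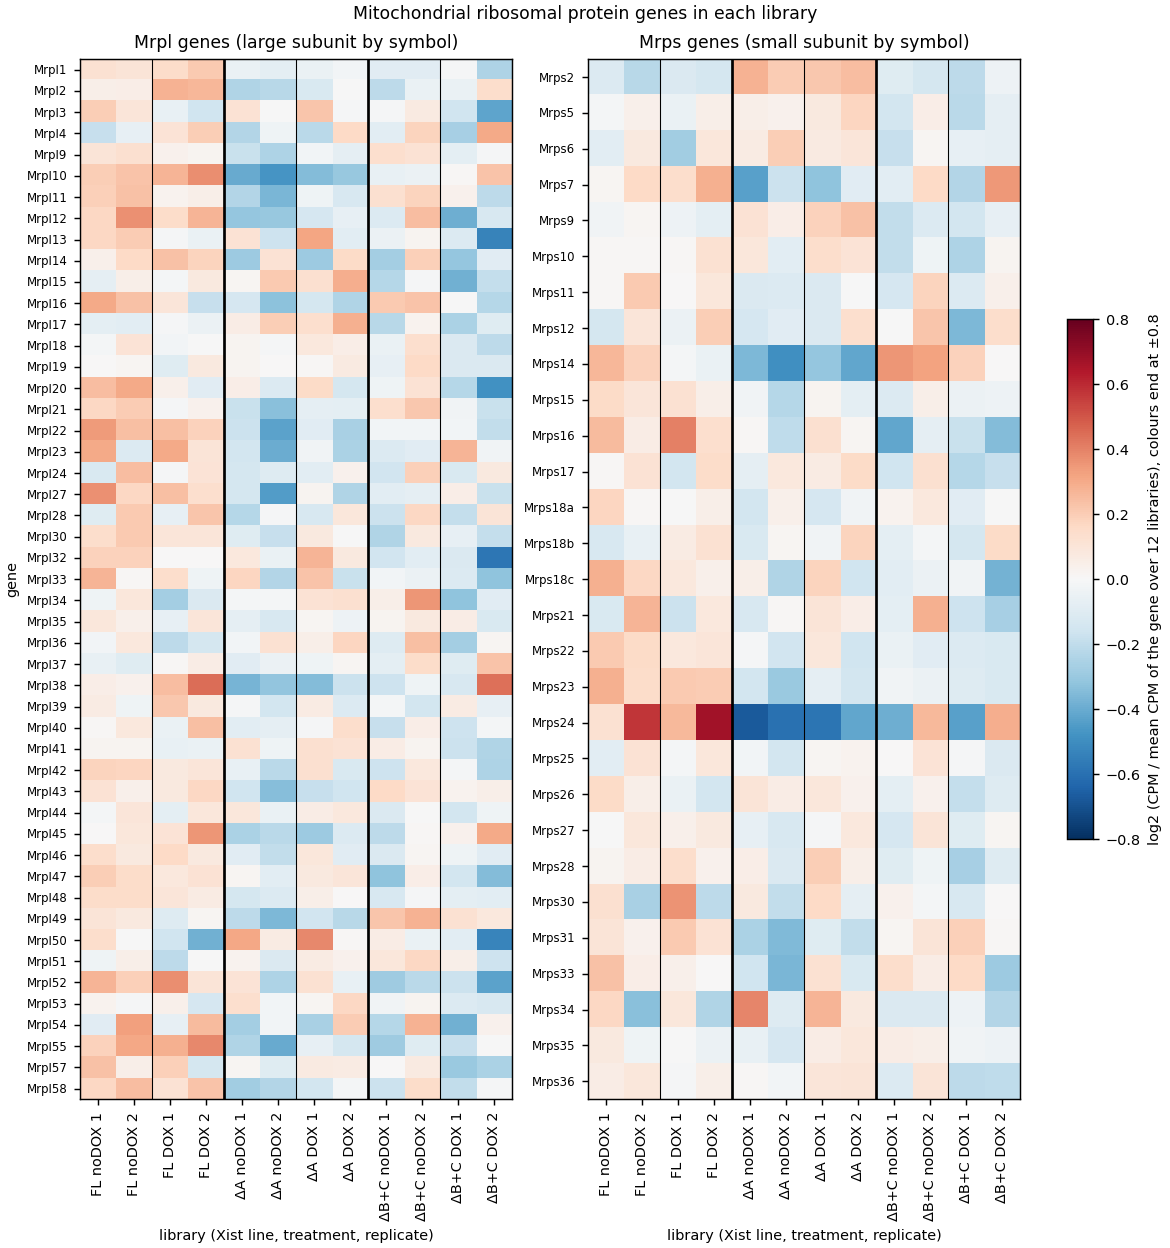
Level of each of the 78 members in each of the 12 libraries, as log2 of CPM over the gene's mean CPM, for the 49 Mrpl genes (left) and the 29 Mrps genes (right); columns are libraries by line, treatment and replicate. The columns of *Xist* ΔA are lower for *Mrpl10* and *Mrps14*, *Mrps24* runs from 67.4 CPM in *Xist* ΔA noDOX to 171 CPM in *Xist* FL DOX, and *Mrps34* and *Mrpl54* differ between replicates.

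The first question was whether DOX shifted the set in any line. No member was called in any of the 3 lines in the main fit, which has no term for replicate number. With replicate number as a term (the replicate block), 3 members were called in *Xist* FL cells, 0 in *Xist* ΔA cells and 11 in *Xist* ΔB+C. Values below are from the main fit unless the block is named. The differences, as log2 fold changes, were as follows: in *Xist* FL they lay between -0.34 and 0.31 with a median of -0.04, in *Xist* ΔA between -0.05 and 0.27 with a median of 0.10, and in *Xist* ΔB+C between -0.41 and 0.28 with a median of -0.09. The median of all genes tested lay near 0 in each line (-0.007, 0.0001 and -0.003). The SE of a single member's difference had a median of 0.12. The direction nevertheless differed between lines, with 30 of 78 differences above 0 in *Xist* FL cells, 74 of 78 in *Xist* ΔA cells and 16 of 78 in *Xist* ΔB+C. Among all genes tested, 48.9%, 50.0% and 49.4% of differences were above 0. In the same order of lines, the 11 members on chromosome 11 had medians of 0.09, 0.12 and 0.02. All tested genes of that chromosome had medians of 0.08, 0.01 and 0.12. The 67 members elsewhere had medians of -0.05, 0.10 and -0.10, against -0.01, -0.0008 and -0.01 for all genes elsewhere. *Mrpl10*, *Mrpl38* and *Mrpl45*, named below for rises, are on chromosome 11.

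The calls of 0 members stood beside low backgrounds: of all 13191 genes, 1.24% were called in *Xist* FL cells (0.144% higher, 1.09% lower), 0.00758% (only *Xist*) in *Xist* ΔA cells and 2.94% in *Xist* ΔB+C (0.811% higher, 2.13% lower). limma-voom also called 0 members in each line, and DESeq2 called 0, 0 and 1 (*Mrpl34*, lower in *Xist* ΔB+C). The share of all genes called by DESeq2 is not given, here or below. At an unadjusted p under 0.05, 1 member was higher and 4 were lower with DOX in *Xist* FL cells, where 5.37% and 8.13% of all genes were. In *Xist* ΔA 2 were higher and 0 lower (0.243% and 0.887% of all genes), and in *Xist* ΔB+C 0 were higher and 12 lower (8.10% and 10.7%). These counts depend on the replicate number: with the replicate block in the fit, 3 members were called lower in *Xist* FL cells (*Mrpl16*, *Mrpl50* and *Mrps14*), 0 in *Xist* ΔA cells, and 1 higher and 10 lower for *Xist* ΔB+C. The share of all genes called with the replicate block is not given. Whether the members stand out in that fit therefore cannot be said. The smallest adjusted p of a member was 0.249 in *Xist* FL cells (*Mrps14*), 1 in *Xist* ΔA cells and 0.112 in *Xist* ΔB+C (*Mrpl34*).

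**Figure D2:**
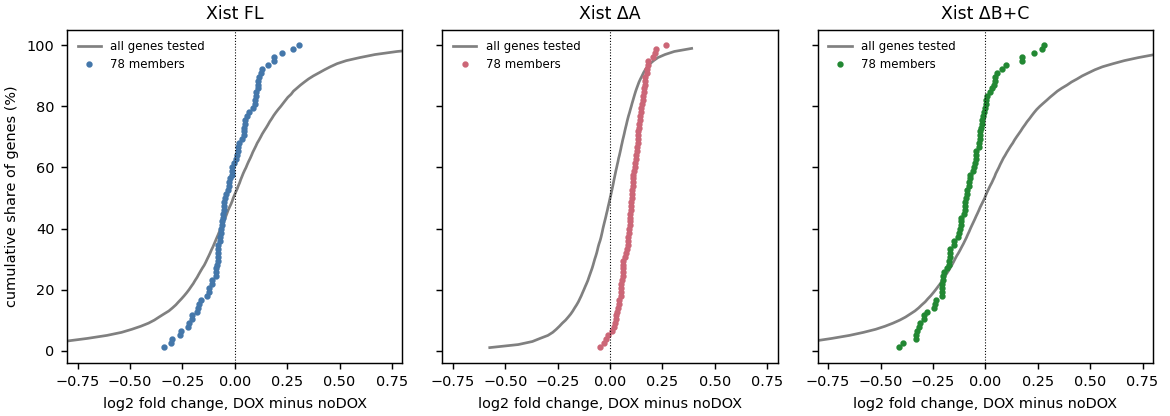
Cumulative share of genes (y axis, %) by log2 fold change of DOX against noDOX (x axis) in each line, for the 78 members (coloured points) and all genes tested (grey line). The member median is -0.04 in *Xist* FL cells, 0.10 in *Xist* ΔA cells and -0.09 in *Xist* ΔB+C, and the members spread less than all genes.

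Summed over the 78 genes, the level was 5282 and 5367 CPM in the *Xist* FL noDOX libraries and 5238 and 5342 CPM in the DOX libraries, which overlap. The *Xist* ΔA noDOX libraries stood at 4717 and 4545 CPM, both below the DOX libraries at 4996 and 4966 CPM. In *Xist* ΔB+C, noDOX stood at 4749 and 5264 CPM and DOX at 4599 and 4832 CPM, again overlapping, with the 2 noDOX replicates further apart than in any other group. As a share of all counts, the members made up 0.461% (95% Wilson interval 0.458 to 0.463) in the lowest library, *Xist* ΔA noDOX replicate 2, and 0.537% (0.534 to 0.539) in the highest, *Xist* FL noDOX replicate 2. Group means of the share were 0.531 ± 0.00750% and 0.529 ± 0.00647% for *Xist* FL noDOX and DOX, 0.469 ± 0.0113% and 0.490 ± 0.00591% for *Xist* ΔA cells, and 0.497 ± 0.0270% and 0.479 ± 0.0127% for *Xist* ΔB+C (SD, n = 2 each). Intervals cover counting error only. Large-subunit and small-subunit genes kept nearly 1 ratio, with 1.81 to 1.96 times as many CPM on Mrpl as on Mrps genes over the 12 libraries.

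**Figure D3:**
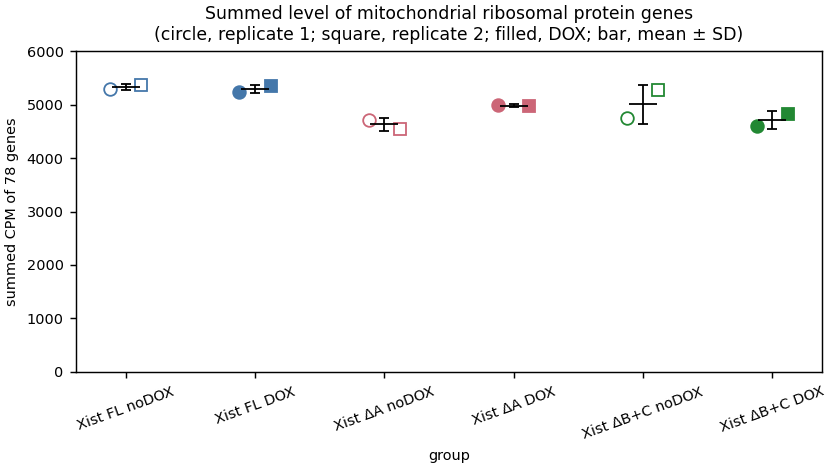
Summed CPM of the 78 members (y axis) in each library by group (x axis), with the mean and SD of the 2 replicates. The *Xist* FL libraries lie between 5238 and 5367 CPM, the *Xist* ΔA noDOX libraries are the lowest with *Xist* ΔB+C DOX replicate 1, and the *Xist* ΔB+C noDOX replicates lie 515 CPM apart.

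Counting members whose DOX and noDOX libraries did not overlap gave 12 higher and 25 lower with DOX in *Xist* FL cells, against 22.5% and 25.7% of all genes. *Xist* ΔA had 31 higher and 0 lower (10.9% and 12.5% of all genes), and *Xist* ΔB+C had 3 higher and 30 lower (19.7% and 23.3%). *Mrpl10*, which encodes the protein that holds the stalk, was the only member higher in all 3 lines, and no member was lower in all 3. Its levels were 117 and 119 CPM for *Xist* FL noDOX, 123 and 132 for *Xist* FL DOX, 77.3 and 73.4 in *Xist* ΔA noDOX, 80.4 and 82.5 in *Xist* ΔA DOX, 97.9 and 98.8 in *Xist* ΔB+C noDOX and 103 and 119 in *Xist* ΔB+C DOX. With DOX its log2 difference was 0.11 ± 0.09 in *Xist* FL cells, 0.11 ± 0.09 in *Xist* ΔA cells and 0.17 ± 0.09 in *Xist* ΔB+C, with adjusted p-values of 0.645, 1 and 0.339, so it was not called. Another 12 members, among them *Mrpl9*, *Mrpl11*, *Mrpl12*, *Mrpl21*, *Mrpl34* and *Mrps36*, were higher with DOX in *Xist* ΔA cells and lower in *Xist* ΔB+C. The shares of all genes with these patterns across lines are not given. Neither the 12 members nor *Mrpl10* can therefore be read as a trait of the set.

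Among small-subunit proteins with bacterial relatives, *Mrps12*, which lines the decoding site, differed with DOX by 0.10 ± 0.18 in *Xist* FL cells, 0.13 ± 0.18 in *Xist* ΔA cells and -0.20 ± 0.18 in *Xist* ΔB+C. Its libraries read 38.5 and 45.5 CPM without and 41.3 and 48.8 CPM with DOX in *Xist* FL cells. In *Xist* ΔA they read 38.7 and 39.9 CPM without and 39.2 and 46.7 CPM with DOX, and in *Xist* ΔB+C 42.4 and 49.6 CPM without and 33.1 and 46.8 CPM with DOX. The higher value in every group was replicate 2, and the replicate gap exceeded the DOX difference in *Xist* FL cells and *Xist* ΔB+C. Differences in the other bacterial-type members *Mrps5*, *Mrps7*, *Mrps10* and *Mrps16* ran from -0.10 to 0.16 over the 3 lines. *Mrps22*, found only in mitochondria, differed with DOX by -0.09, 0.05 and -0.04 in *Xist* FL cells, *Xist* ΔA cells and *Xist* ΔB+C. The paralogs *Mrps18a*, *Mrps18b* and *Mrps18c* did not share a direction: in *Xist* FL their differences were -0.07, 0.19 and -0.16. *Mrps30* differed with DOX by 0.16, 0.10 and -0.07, and *Mrps36* by -0.06, 0.11 and -0.20, in the same order of lines. None of these was called.

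Among large-subunit members, *Mrpl11*, at the base of the stalk, had 121 and 124 CPM for *Xist* FL noDOX, 108 and 109 for *Xist* FL DOX, 89.6 and 81.9 in *Xist* ΔA noDOX, 103 and 96.6 in *Xist* ΔA DOX, 115 and 119 in *Xist* ΔB+C noDOX and 108 and 91.2 in *Xist* ΔB+C DOX. DOX libraries were lower than noDOX libraries in *Xist* FL cells and *Xist* ΔB+C and higher in *Xist* ΔA cells, with differences of -0.17 ± 0.10, -0.23 ± 0.10 and 0.22 ± 0.10. *Mrpl12* differed with DOX by -0.06 ± 0.13, 0.20 ± 0.13 and -0.33 ± 0.13 in *Xist* FL cells, *Xist* ΔA cells and *Xist* ΔB+C. *Mrpl3*, a core protein near the catalytic centre, read 85.4 and 79.6 CPM without and 71.3 and 66.8 with DOX in *Xist* FL cells, and its log2 differences were -0.26, 0.05 and -0.32. *Mrpl13* differed with DOX by -0.22, 0.15 and -0.29, *Mrpl15* by 0.04, 0.09 and -0.17, and the small proteins *Mrpl33* and *Mrpl36* by -0.09, 0.06 and -0.17 and by -0.21, 0.06 and -0.20. *Mrpl44*, which carries an RNase III fold, differed with DOX by -0.03, 0.05 and -0.03. None was called, and the medians of the Mrpl and Mrps genes were alike, at -0.05 and -0.01 in *Xist* FL cells, 0.10 and 0.11 in *Xist* ΔA cells, and -0.10 and -0.07 in *Xist* ΔB+C.

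The members furthest from 0 with DOX in *Xist* FL were *Mrpl50* (-0.34), *Mrpl16* (-0.31) and *Mrpl20* (-0.30) below and *Mrpl38* (0.31), *Mrpl4* (0.28) and *Mrpl2* (0.22) above. *Mrpl16*, part of the peptidyl transferase region, read 58.1 and 55.4 CPM without DOX and 50.4 and 41.5 CPM with it. *Mrpl2*, another protein of that region, read 92.4 and 93.0 CPM without and 109 and 108 CPM with DOX, with no overlap. In *Xist* ΔA the lowest were *Mrps6* (-0.05), *Mrps18a* (-0.03) and *Mrps26* (-0.02), and the highest *Mrps33* (0.27), *Mrpl11* (0.22) and *Mrpl55* (0.22). The 3 lowest lay within their SE of 0 and changed sign when single *Xist* ΔA libraries were left out. In *Xist* ΔB+C the lowest were *Mrpl34* (-0.41), *Mrpl20* (-0.39) and *Mrpl12* (-0.33) and the highest *Mrpl38* (0.28), *Mrpl45* (0.27) and *Mrpl23* (0.23). *Mrpl34*, a short protein of the large subunit, had 86.5 and 107 CPM in the noDOX libraries and 67.1 and 78.6 CPM in the DOX libraries of *Xist* ΔB+C, a difference of -0.41 ± 0.12 (adjusted p = 0.112, edgeR). *Mrpl38* in *Xist* ΔB+C rested on 1 library, since it read 98.9 and 108 CPM without and 101 and 150.3 with DOX, and its difference was -0.03 without *Xist* ΔB+C DOX replicate 2, the library made from 100 ng of RNA by a low-input method where the others had 1000 ng.

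How far the medians can be relied on depends on single libraries. In *Xist* ΔB+C the member median was -0.16 without noDOX replicate 1 and -0.03 without noDOX replicate 2, and it was -0.10 without the low-input library. In *Xist* ΔA it was 0.14 without noDOX replicate 1 and 0.07 without noDOX replicate 2, and in *Xist* FL -0.02 without DOX replicate 1 and -0.07 without DOX replicate 2. Counts of calls stayed at 0 in all 3 lines without any single library.

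The response to DOX was next compared between lines. *Xist* ΔB+C minus *Xist* ΔA gave a member median of -0.18, with 70 of 78 differences below 0, and *Xist* ΔA minus *Xist* FL a median of 0.13, with 66 of 78 above 0. *Xist* ΔB+C minus *Xist* FL gave -0.06, with 61 of 78 below 0. No member was called in these comparisons by edgeR or limma-voom, where 0.205%, 0% and 0% of all genes were called. With the replicate block 5 members were called lower in the first of these and 0 in the others, without the share of all genes in that fit beside them. DESeq2 called 2 members lower in *Xist* ΔB+C minus *Xist* ΔA and 0 in the others. At an unadjusted p under 0.05, 10 members were lower and 0 higher in *Xist* ΔB+C minus *Xist* ΔA (6.78% and 5.31% of all genes), 4 were higher and 0 lower in *Xist* ΔA minus *Xist* FL (4.30% and 3.14%), and 0 differed in *Xist* ΔB+C minus *Xist* FL (0.326% higher and 0.478% lower). *Mrpl21*, of the large subunit, had the smallest p, with a difference of -0.46 ± 0.13 between *Xist* ΔB+C and *Xist* ΔA cells (adjusted p = 0.197), and *Mrpl11* and *Mrpl9* followed with -0.45 ± 0.14 and -0.34 ± 0.10. These differences share their libraries with the differences within lines. The noDOX libraries of both lines also enter the noDOX comparisons below, with the opposite sign. The results for *Mrpl21*, *Mrpl11* and *Mrpl9* here and there are therefore not independent. Without *Xist* ΔB+C noDOX replicate 2, the median was -0.10 for *Xist* ΔB+C minus *Xist* ΔA and -0.002 for *Xist* ΔB+C minus *Xist* FL, and without *Xist* ΔB+C noDOX replicate 1 they were -0.27 and -0.11.

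Between lines without DOX, differences were larger. Among the 78 members, 14 were called lower and 1 higher in *Xist* ΔA than in *Xist* FL cells, where 9.84% of all genes were called (5.54% lower and 4.30% higher). The member median was -0.18 while that of all genes was near 0 (0.0003), and 63 of 78 differences were below 0. The noDOX libraries of both lines did not overlap in 43 members that were lower and 3 that were higher in *Xist* ΔA cells (28.0% and 29.2% of all genes). The 10 with the smallest p were *Mrpl10*, *Mrps14*, *Mrpl11*, *Mrpl22*, *Mrpl21*, *Mrps23*, *Mrpl55*, *Mrpl9* and *Mrpl49*, all lower, and *Mrps2*, higher. The other 5 calls, listed after their values were seen, were *Mrpl12*, *Mrpl16*, *Mrps31*, *Mrpl27* and *Mrpl58*, all lower. The last encodes a peptidyl-tRNA hydrolase that is built into the large subunit.

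*Mrpl10* (chr11:97041560-97049213, plus strand, GRCm38) was lowest in the 4 *Xist* ΔA libraries, as its values above show, and its noDOX difference from *Xist* FL was -0.65 ± 0.09 (adjusted p = 0.00372, edgeR). *Mrps14* (chr1:160195215-160202170, plus strand), a small-subunit protein of bacterial type, read 105 and 99.1 CPM for *Xist* FL noDOX, 86.1 and 84.0 for *Xist* FL DOX, 67.8 and 62.1 in *Xist* ΔA noDOX, 70.3 and 65.4 in *Xist* ΔA DOX, 111 and 109 in *Xist* ΔB+C noDOX and 98.8 and 87.4 in *Xist* ΔB+C DOX. Every *Xist* ΔA library lay below every library of the other lines, and the difference was -0.65 ± 0.09 (adjusted p = 0.00402). *Mrpl11* (chr19:4962147-4966999, plus strand) differed by -0.51 ± 0.10 and *Mrpl21* (chr19:3282901-3292837, plus strand) by -0.44 ± 0.09, with noDOX levels of 62.1 and 55.6 CPM in *Xist* ΔA cells and 78.8 and 80.9 CPM in *Xist* FL cells. *Mrpl22*, at the exit of the peptide tunnel, had 44.9 and 37.6 CPM against 64.0 and 59.7 CPM (-0.58 ± 0.11). *Mrps23* and *Mrpl55*, both specific to mitochondria, differed by -0.44 ± 0.09 and -0.57 ± 0.12.

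*Mrpl9* (chr3:94443318-94451130, plus strand), whose start region carries the NRF1 letters shown above, had 64.9 and 61.9 CPM in *Xist* ΔA cells and 79.0 and 80.5 CPM in *Xist* FL cells (-0.33 ± 0.07). *Mrpl49* (chr19:6053622-6057785, minus strand) had 75.5 and 67.9 CPM in *Xist* ΔA cells and 93.8 and 92.0 CPM in *Xist* FL cells (-0.37 ± 0.08). Both overlap exons of another gene in the annotation, so their counts are uncertain. *Mrps2* (chr2:28468066-28471178, plus strand), a small-subunit protein of bacterial type, went the other way, with 56.1 and 51.8 CPM for *Xist* FL noDOX, 55.8 and 54.7 for *Xist* FL DOX, 73.2 and 69.6 in *Xist* ΔA noDOX, 70.1 and 71.6 in *Xist* ΔA DOX, 56.5 and 54.8 in *Xist* ΔB+C noDOX and 52.2 and 58.8 in *Xist* ΔB+C DOX, a noDOX difference of 0.41 ± 0.09 (adjusted p = 0.023). The widest difference in size belonged to *Mrps24* (chr11:5703983-5715680, minus strand), with 67.4 and 70.9 CPM in *Xist* ΔA cells and 117 and 159.6 CPM in *Xist* FL cells, but its replicates were far apart and it was not called (-0.999 ± 0.28, adjusted p = 0.0585).

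**Figure D4:**
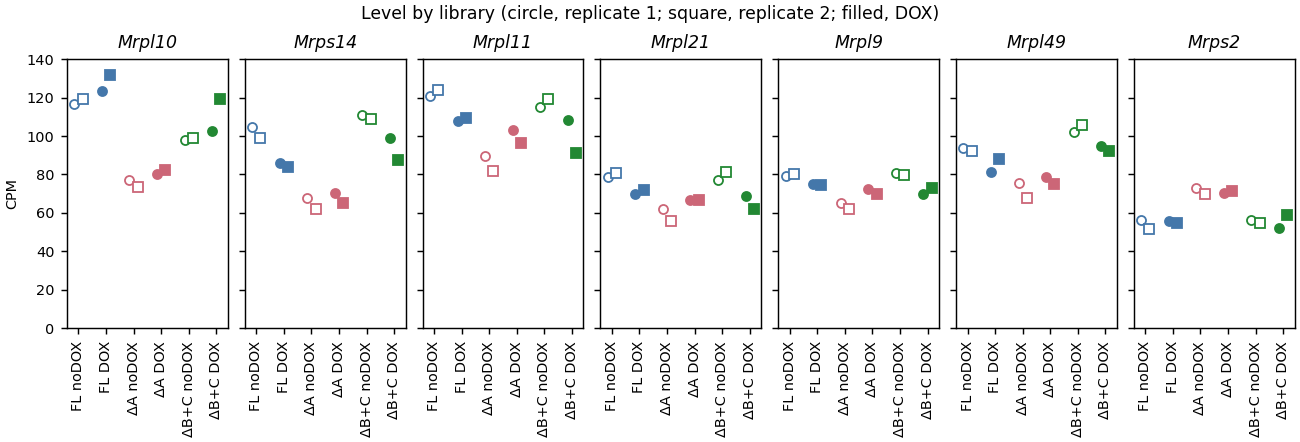
CPM (y axis, from 0) in each library by group (x axis) for the 7 members called between *Xist* ΔA cells and both other lines without DOX. *Mrpl10*, *Mrps14*, *Mrpl11*, *Mrpl21*, *Mrpl9* and *Mrpl49* are lower and *Mrps2* is higher in *Xist* ΔA noDOX than in the noDOX libraries of the other lines.

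*Xist* ΔB+C, derived from *Xist* FL cells, did not show these calls. Between *Xist* ΔB+C and *Xist* FL without DOX 0 members were called by edgeR, DESeq2 and limma-voom (0.0227% of all genes by edgeR), 9 were lower and 0 higher at an unadjusted p under 0.05 (2.94% and 2.90% of all genes), and the median was -0.08. Of the 78 differences, 60 were below 0. The noDOX libraries did not overlap in 30 members that were lower and 3 that were higher (18.0% and 17.5% of all genes). Most members thus lay below *Xist* FL in *Xist* ΔB+C as well, by a smaller median. Between *Xist* ΔB+C and *Xist* ΔA cells, 6 members were called higher and 1 lower, where 6.69% of all genes were called (3.81% higher and 2.87% lower): *Mrps14* (0.76 ± 0.09), *Mrpl49* (0.53 ± 0.08), *Mrpl21* (0.43 ± 0.09), *Mrpl11* (0.45 ± 0.10), *Mrpl9* (0.34 ± 0.07) and *Mrpl10* (0.38 ± 0.09) were higher in *Xist* ΔB+C and *Mrps2* (-0.36 ± 0.09) lower. All 7 were also called between *Xist* ΔA cells and *Xist* FL cells, and both comparisons share the *Xist* ΔA noDOX libraries.

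The position of members on chromosomes went with these differences. All 11 members on chromosome 11 were lower in *Xist* ΔA than in *Xist* FL cells, 7 of them called, with a median of -0.55. All 1113 tested genes of chromosome 11 had a median of -0.35, and 23.3% of them were called lower. On chromosome 19 all 5 members were lower and 4 called, with a median of -0.44, and the 451 tested genes there had a median of -0.21 with 11.8% called lower. The 62 members elsewhere had a median of -0.14, 3 calls lower and 1 higher, while other chromosomes' genes had a median of 0.03 (11627 genes). In *Xist* ΔB+C the 11 members of chromosome 11 were also all below *Xist* FL cells, with a median of -0.26 against -0.15 for the chromosome, and none was called. On chromosome 19 the members' median in *Xist* ΔB+C was -0.01 against 0.15 for the chromosome. No member is on the X chromosome.

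**Figure D5:**
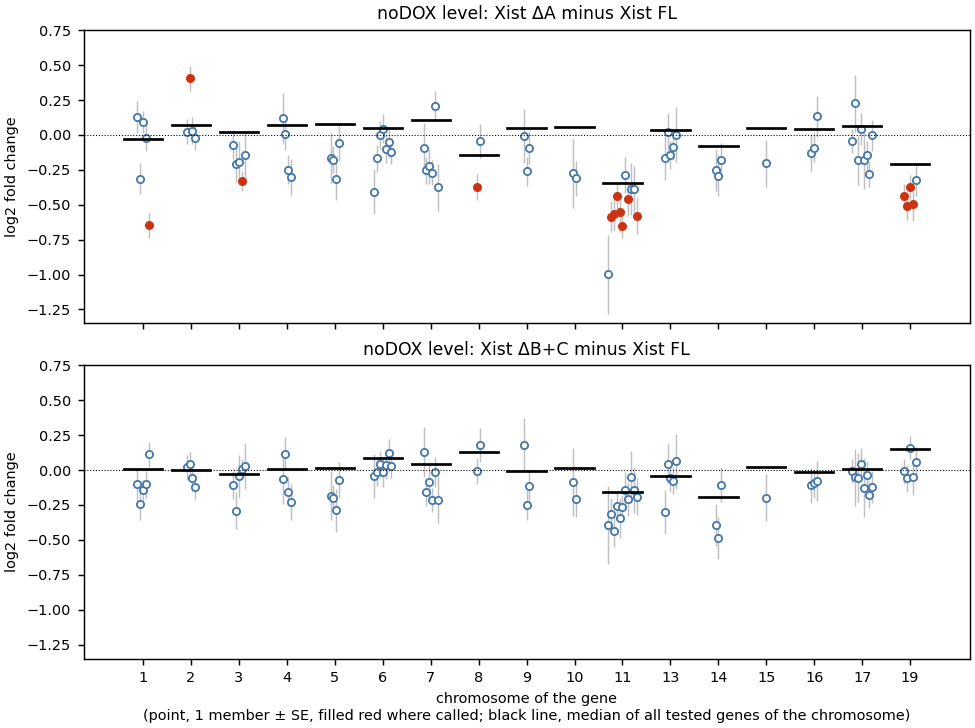
noDOX log2 fold change of each member (points with SE, filled red where called) by chromosome (x axis) for *Xist* ΔA minus *Xist* FL (top) and *Xist* ΔB+C minus *Xist* FL (bottom); black lines are medians of all tested genes of the chromosome. In *Xist* ΔA the 11 members of chromosome 11 and the 5 of chromosome 19 lie below 0, and 11 of the 15 calls are among them.

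The calls between lines varied with the libraries and with the replicate block, under which 32 members were called lower and 1 higher in *Xist* ΔA than in *Xist* FL, 1 lower for *Xist* ΔB+C minus *Xist* FL, and 15 higher and 3 lower in *Xist* ΔB+C than in *Xist* ΔA. For the counts under the replicate block and those without single libraries, the share of all genes called is not given, so they are not a trait of the set. Without *Xist* FL noDOX replicate 1, *Xist* FL noDOX replicate 2 or *Xist* ΔA noDOX replicate 2, only 2 members were called between *Xist* ΔA cells and *Xist* FL cells, *Mrpl10* and *Mrps14*, and without *Xist* ΔA noDOX replicate 1 there were 5. Between *Xist* ΔB+C and *Xist* ΔA only *Mrps14* was called without *Xist* ΔA noDOX replicate 2 or without either *Xist* ΔB+C noDOX replicate, *Mrps14* and *Mrpl49* without *Xist* ΔA noDOX replicate 1 or either *Xist* FL noDOX replicate, and 4 members without *Xist* ΔA DOX replicate 2 or either *Xist* FL DOX replicate. Markers of other cell types moved with the line: the 4 mesoderm markers (*T*, *Mesp1*, *Eomes*, *Mixl1*, none at 0 in all libraries) summed to 241.6 and 175 CPM in *Xist* FL noDOX. They summed to 47.2 and 37.2 CPM in *Xist* ΔA noDOX and to 201.7 and 108 CPM in *Xist* ΔB+C noDOX. With DOX they summed to 132 and 35.8 CPM in *Xist* FL cells, 61.6 and 39.3 in *Xist* ΔA cells and 132 and 38.5 in *Xist* ΔB+C, and *Eomes* was called lower in *Xist* FL cells and *Xist* ΔB+C. The 6 primitive endoderm markers summed to 22.4 to 55.4 CPM over the libraries and the 6 fibroblast markers to 11.1 to 54.9. The 3 neural markers summed to 69.6 to 186 and the 3 trophoblast markers to 4.84 to 18.1. None of these markers was at 0 in all libraries or called with DOX. Between same-numbered libraries, neural sums rose with DOX in each line. They went from 77.9 to 130 and 96.4 to 162 CPM in *Xist* FL cells. In *Xist* ΔA they went from 69.6 to 71.7 and 117 to 125, and in *Xist* ΔB+C from 87.9 to 107 and 133.9 to 186. Primitive endoderm sums rose in *Xist* ΔB+C (40.1 to 55.4 and 27.2 to 41.5) and fell in *Xist* ΔA (29.3 to 27.0 and 30.1 to 24.4). In *Xist* FL they went from 26.2 to 26.0 and 22.4 to 33.0. Markers also moved with replicate number. In replicate 2, edgeR called the 3 tested mesoderm markers lower (median -1.38). It called the 6 pluripotency and 3 neural markers higher (medians 0.62 and 0.54), where 46.3% of all genes were called. Of the primitive endoderm markers 1 was higher and 1 lower, and 1 fibroblast and 1 trophoblast marker were lower. The part of other cell types in the differences of the members was not tested.

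Replicate number went with many members. In a fit with replicate number as a term, libraries numbered 2 differed from those numbered 1 in 31 of 78 members, 19 higher and 12 lower, while 46.3% of all genes were called (22.7% higher and 23.5% lower). The member median was 0.003. The 10 members with the smallest p included *Mrpl54* (0.40 ± 0.05), *Mrpl28* (0.28 ± 0.04), *Mrps24* (0.42 ± 0.08), *Mrps7* (0.27 ± 0.06), *Mrpl4* (0.27 ± 0.06), *Mrps12* (0.25 ± 0.06) and *Mrpl15* (0.16 ± 0.04) above 0 and *Mrps34* (-0.28 ± 0.06), *Mrpl50* (-0.26 ± 0.05) and *Mrpl33* (-0.25 ± 0.05) below. *Mrps34*, of the small subunit, read 66.6 CPM in replicate 1 and 47.2 CPM in replicate 2 of *Xist* FL noDOX. The same replicates read 77.8 and 55.3 CPM for *Xist* ΔA noDOX and 54.8 and 54.9 CPM in *Xist* ΔB+C noDOX. It was lower in replicate 2 in every group except the last. Across the 6 groups, 17 members were higher and 6 lower in replicate 2 every time, compared with 20.7% and 20.7% of all genes. The replicates of *Xist* ΔB+C noDOX stood furthest apart, with 64 of 78 members higher in replicate 2 and a median difference of 0.11.

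The 5 mitoribosome proteins outside the symbol rule, the GTP-binding *Dap3*, *Ptcd3*, *Chchd1*, *Aurkaip1* and *Gadd45gip1*, differed with DOX by between -0.07 and 0.13 in *Xist* FL cells, 0.02 and 0.16 in *Xist* ΔA cells, and -0.22 and 0.13 in *Xist* ΔB+C. Without DOX, *Gadd45gip1* was called lower in *Xist* ΔA than in *Xist* FL cells, with 34.2 and 35.8 CPM against 49.5 and 52.4 CPM (-0.54 ± 0.14, adjusted p = 0.0455, edgeR). With the 18 translation factors, 22 aminoacyl-tRNA synthetases and amidotransferase subunits, 29 assembly and rRNA modification factors, 11 genes of mitochondrial transcription, 11 transcription factors and 13 chaperones and proteases, these 109 genes gave 0 calls with DOX in each line by edgeR and limma-voom and 1, 0 and 3 by DESeq2 in *Xist* FL cells, *Xist* ΔA cells and *Xist* ΔB+C. At an unadjusted p under 0.05, 2 were higher and 10 lower in *Xist* FL cells (5.37% and 8.13% of all genes). In *Xist* ΔA 1 was higher and 0 lower (0.243% and 0.887%), and in *Xist* ΔB+C 2 were higher and 12 lower (8.10% and 10.7%). The medians of the 109 genes were -0.002, 0.05 and -0.04 in the same order of lines. Without DOX, the 109 genes had a median of 0.006 in *Xist* ΔA minus *Xist* FL, with 5 called, where 9.84% of all genes were called. At an unadjusted p under 0.05, 12 of them were higher and 13 lower. The members had a median of -0.18 with 1 higher and 26 lower at that p. Of all genes, 12.6% were higher and 13.3% lower.

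Among 16 targets of ATF4, the factor that rises when mitochondrial translation is blocked, edgeR called *Ddit4* higher with DOX in *Xist* FL cells (0.71 ± 0.13, adjusted p = 0.039) and also in the *Xist* ΔB+C line (0.99 ± 0.13, adjusted p = 0.00717), and *Psat1*, of serine synthesis, lower in *Xist* ΔB+C (-0.73 ± 0.11, adjusted p = 0.0135). None was called in *Xist* ΔA by edgeR, DESeq2 or limma-voom, where 4 were higher at an unadjusted p under 0.05. The medians of the list were 0.16, 0.24 and -0.02 in *Xist* FL cells, *Xist* ΔA cells and *Xist* ΔB+C. The other 14 targets were not called in any line by edgeR or limma-voom. DESeq2 called 3 targets in *Xist* FL cells and 4 for *Xist* ΔB+C.

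The small shifts with DOX were also seen in other lists of housekeeping genes. The 75 autosomal cytosolic ribosomal protein genes had DOX medians of -0.03 in *Xist* FL cells, 0.15 in *Xist* ΔA cells, with 74 of 75 above 0, and -0.08 in *Xist* ΔB+C, with 14 of 75 above 0, and 0 calls in any line by edgeR, DESeq2 or limma-voom (at an unadjusted p under 0.05, 0 higher and 1 lower, 1 higher and 0 lower, and 0 higher and 3 lower). The 75 autosomal genes of oxidative phosphorylation subunits had medians of -0.03, 0.09, with 72 of 75 above 0, and -0.10, with 19 of 75 above 0, and edgeR called 1 higher and 1 lower in *Xist* ΔB+C and 0 in the other lines. For that list DESeq2 called 1 gene in *Xist* FL cells, 0 in *Xist* ΔA cells and 4 in *Xist* ΔB+C, and limma-voom 0, 0 and 2. Without DOX, the cytosolic list stood at -0.15 and the oxidative phosphorylation list at -0.15 in *Xist* ΔA minus *Xist* FL, near the members' -0.18.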

How the data were processed

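RNA-seq was made from 12 libraries of *Xist*-TetOP ES cells at day 2 of differentiation, 2 replicates in each of 6 groups. The authors aligned paired-end reads to mm10 with TopHat (v2.1.0) and counted read pairs per gene with featureCounts (v1.5.1) on refFlat genes without a strand option, and deposited raw counts per library. The labels put each library in its group; the deposited files of replicate 1 of all 3 noDOX groups carry DOX in their names, their labels say noDOX, and their *Xist* levels lie with the other noDOX libraries. The library of *Xist* ΔB+C DOX replicate 2 came from less RNA by a low-input method.

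Genes reaching 1 CPM in 6 or more libraries were tested with edgeR (v4.0.16) under R (v4.3.3). The quasi-likelihood test (robust) used 6 group means over 12 libraries, which share 1 estimate of the spread with 6 residual degrees of freedom, TMM factors from expressed autosomal genes, and Benjamini-Hochberg adjustment with a threshold of 0.05. Replicate number was a term in the comparison of replicates and in the alternative with a replicate block. Scripts were tested on simulated data. Libraries held 31337490 to 41240470 counts. Intervals for shares are 95% Wilson intervals. Alternatives were DESeq2 (v1.42.0), limma-voom (v3.58.1), other scaling factors and filters, fewer libraries and leaving out each library. Gene positions and exon lengths came from GENCODE (vM21, GRCm38), start regions from RefSeq (GRCm38.p6), and figures from matplotlib (v3.10.9).

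The members and lists were chosen with earlier results of these data known, and the cytosolic ribosomal protein and oxidative phosphorylation lists were added, and the motif letters set, after the values were seen. Members were named where called (the 10 with the smallest p if more), where among the 3 highest or 3 lowest with DOX in a line, where not overlapping in 1 direction in all 3 lines, where among the 3 highest or lowest per length, or from a fixed set by role. Genes of the other lists were named where called with DOX, and the mitoribosome proteins without the prefix were all named.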

Additional observations from a re-analysis of the deposited data

Results flagged for a closer look

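The summed level of the 78 members moved in opposite directions with DOX in different lines in both replicates. Taken between libraries of the same number, DOX minus noDOX was -44.3 CPM for replicate 1 and -25.4 CPM for replicate 2 in *Xist* FL. In *Xist* ΔA it was 278.9 and 420.3 CPM, and in *Xist* ΔB+C -150.2 and -432.2 CPM. Both replicates of *Xist* ΔA thus lay on the other side of 0 from both replicates of the *Xist* FL line and both of *Xist* ΔB+C, and the difference between lines in this sum was not tested. The replicates of *Xist* ΔB+C noDOX lay 515 CPM apart, more than the difference of either number.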

How the results depend on the processing

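Counts of members called with DOX stayed at 0 in every line without any single library, under other scaling factors and filters, in limma-voom and with only the 4 libraries of the line. With DESeq2 they were 1 in *Xist* ΔB+C, 2 for *Xist* ΔB+C minus *Xist* ΔA in the DOX response and 11 for *Xist* ΔB+C minus *Xist* ΔA without DOX, and the last was 4 with no filter on low counts. With only the 6 noDOX libraries, 8 members were called for *Xist* ΔA minus *Xist* FL and 3 for *Xist* ΔB+C minus *Xist* ΔA. The share of all genes called by DESeq2, with other filters or with fewer libraries is not given. Whether these counts changed more than those of all genes therefore cannot be said. The labels tie no day or culture to the replicate numbers, and each comparison has only 2 pairs. Deviations of same-numbered libraries correlated over autosomal genes with r of 0.399 to 0.820 in all 15 pairs of groups, so same-numbered libraries deviated together. With the replicate block, with DOX 3 members were called in *Xist* FL and 11 for the *Xist* ΔB+C line, 5 for *Xist* ΔB+C minus *Xist* ΔA in the DOX response, and, without DOX, 33 for *Xist* ΔA minus *Xist* FL, 1 for *Xist* ΔB+C minus *Xist* FL and 18 for *Xist* ΔB+C minus *Xist* ΔA. The share of all genes called with the replicate block is not given beside these counts. The causes were not tested.

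Without single libraries, the member median ran from -0.068 to -0.020 in *Xist* FL, 0.07 to 0.14 in *Xist* ΔA and -0.16 to -0.031 in *Xist* ΔB+C. For the DOX response it ran from -0.11 to -0.002 for *Xist* ΔB+C minus *Xist* FL, 0.11 to 0.18 for *Xist* ΔA minus *Xist* FL and -0.27 to -0.10 for *Xist* ΔB+C minus *Xist* ΔA. Without DOX it ran from -0.19 to -0.15 with 2 to 17 calls for *Xist* ΔA minus *Xist* FL, -0.18 to -0.030 for *Xist* ΔB+C minus *Xist* FL, and -0.007 to 0.17 with 1 to 8 calls for *Xist* ΔB+C minus *Xist* ΔA. The *Xist* FL median was -0.033 with TMM factors from all expressed genes. Signs turned for *Mrps18a* (range -0.12 to 0.067; 0.067 without *Xist* ΔA noDOX replicate 2, 0.023 without *Xist* ΔA DOX replicate 1), *Mrps26* (range -0.046 to 0.012; 0.00026 without *Xist* ΔA noDOX replicate 1, 0.012 without *Xist* ΔA DOX replicate 2) and *Mrps6* (range -0.11 to 0.020, the latter without *Xist* ΔA noDOX replicate 2) in *Xist* ΔA, and for *Mrpl38* (range -0.032 to 0.54, the former without *Xist* ΔB+C DOX replicate 2) in *Xist* ΔB+C. With the 5 proteins outside the symbol rule, the share of counts was 0.580%, 0.578%, 0.515%, 0.537%, 0.542% and 0.524% in *Xist* FL noDOX and DOX, *Xist* ΔA noDOX and DOX, and *Xist* ΔB+C noDOX and DOX, and it was 0.498% in *Xist* ΔA DOX when scaled by TMM factors. With subunits by structure, the ratio of large to small was 2.34, 2.31, 2.29, 2.30, 2.32 and 2.27 in the same order. Of the other values for named genes, 827 kept their direction and side of the threshold, 7 passed it newly and 85 no longer passed it. Each member had at least 330 counts in every library, and each group had 2 libraries.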
